A study of Mus musculus with 2 samples.

Results

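Genes of the actin cytoskeleton and genes controlled by serum response factor (SRF) were examined in cultured mouse hepatocytes in which the histone H3 lysine 27 demethylase JMJD3, the product of Kdm6b, had been reduced. The set was a fixed list of 44 genes, taken by gene symbol from the 23284 genes counted in each library, and all 44 had counts in both. The cells were primary hepatocytes of C57BL/6 mice, cells taken from the liver and kept in culture. Each group was 1 library of cells pooled from 5 mice, one infected with a control lentivirus and one with a lentivirus carrying an shRNA against JMJD3. Infection began 24 h after plating and lasted 48 h. All cells had been plated in medium with 10% serum, and all received 5 mM glucose and 10 µM forskolin, which activates adenylyl cyclase, for 6 h to imitate fasting, so no library stands for untreated or uninfected cells.

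Actin monomers assemble into filaments that myosin II pulls on, that tropomyosins and calponins coat, and that alpha-actinins and filamins crosslink and tie to focal adhesions, where the cell grips its matrix. SRF is the transcription factor that many of these genes share. It binds a short AT-rich element, the CArG box, and is helped by the myocardin-related coactivators Mkl1 and Mkl2, which are held back by free actin monomers and released when monomers are taken up into filaments. In liver, healthy hepatocytes hold a thin band of actin under the membrane and around the bile canaliculus, and cells spread on a culture dish are known to build stress fibres.

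The control library held 11099562 counts and the JMJD3 shRNA library 18334366, a 1.65-fold difference in depth. Counts were scaled with TMM factors to counts per 1000000 counts (CPM), and the log2 ratio of JMJD3 shRNA over control is given with an exact binomial 95% interval of the counts, which covers counting error only. With 1 library per group there is no replicate check and no test of the conditions. Instead, a gene passed a rule of size as higher or lower when its ratio was at least 1.5-fold from 1 and the interval excluded 1. Kdm6b itself had 1019 counts in control and 598 in JMJD3 shRNA, a log2 ratio of -1.46 (-1.60 to -1.31). Hepatocyte genes were present, among them Alb, serum albumin, at 1519 CPM in control and 794 CPM in JMJD3 shRNA, but Apoa1, usually abundant in liver, had only 37 and 53 counts.

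Many of the cytoskeletal genes were higher in the JMJD3 shRNA library and none was lower. Of the 44 genes, 23 passed the rule of size as higher and 0 as lower, against 15.3% and 12.8% of the 12607 genes with a mean of at least 1 CPM over both libraries, which count as measured and include all 44. The genes that tie filaments to focal adhesions, both cytoplasmic actins, both nonmuscle myosin heavy chains, Vim and Srf were among the 23. Tropomyosins, smooth muscle actins, cofilin and galectin 1 were not. In bulk libraries like these, more cells of a type and more RNA per cell cannot be told apart. The median log2 ratio was 0.63 with a standard deviation of 0.67 over genes, beside a median of 0.00 over all measured genes. A ratio of at least 2-fold was found for 15 of the 44, against 7.35% of measured genes. Together the 44 genes took 1.71% of all counts in control (exact binomial 95% interval 1.70 to 1.71) and 2.77% in JMJD3 shRNA (2.76 to 2.78).

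**Figure D1:**
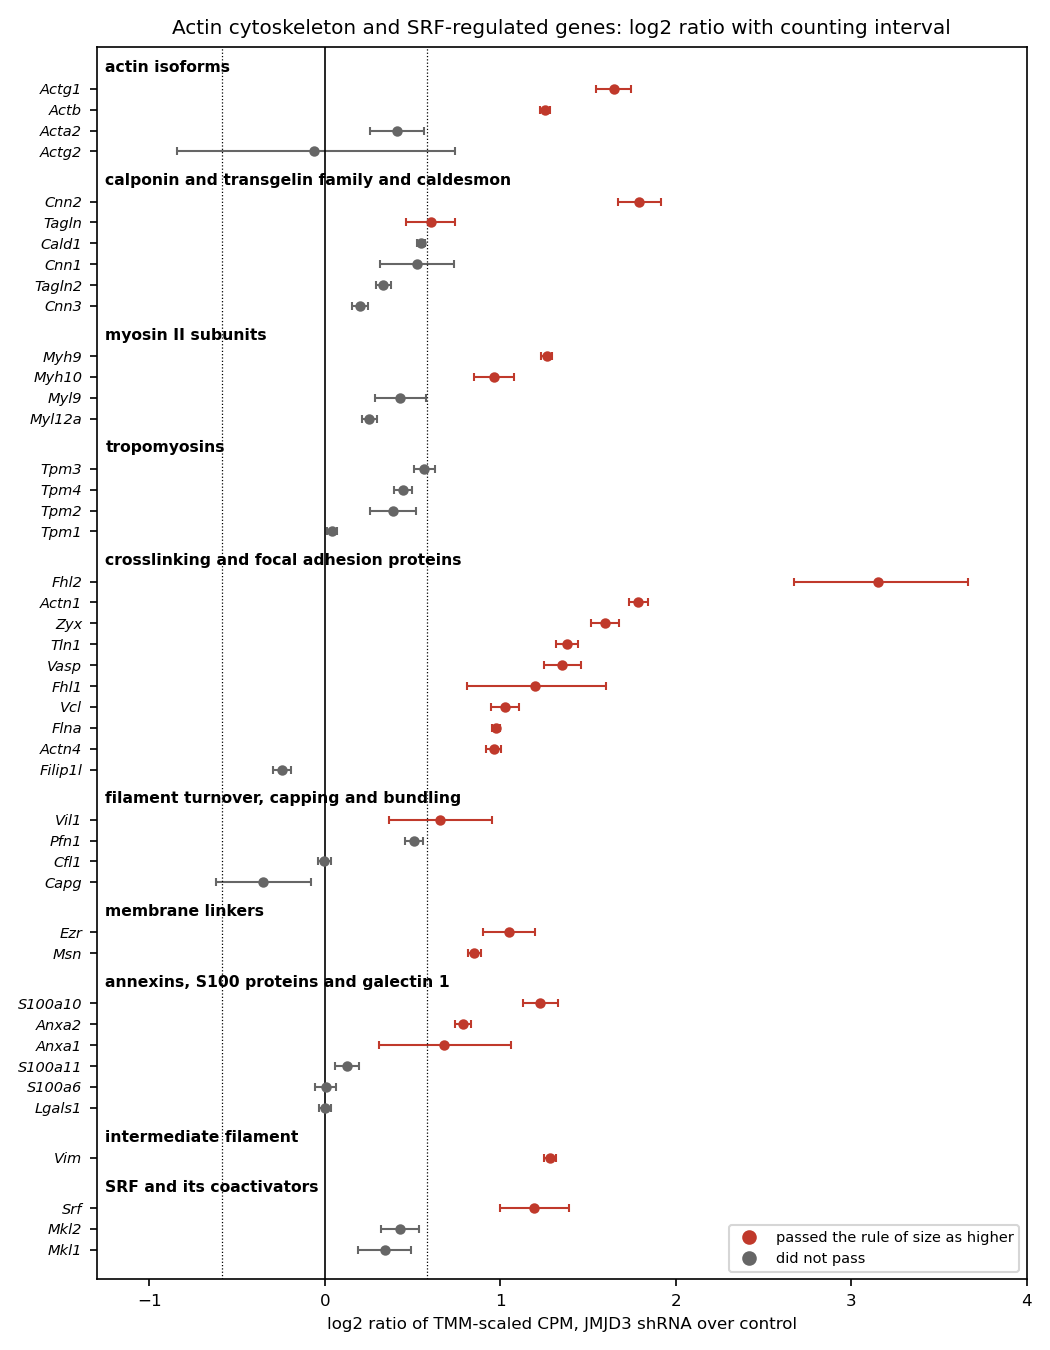
Log2 ratio of TMM-scaled CPM, JMJD3 shRNA over control, for each of the 44 genes in groups by role, 1 library per group. Points are the ratios, bars the exact binomial 95% intervals of the counts, and dotted lines mark 1.5-fold. Red genes passed the rule of size: 9 of 10 crosslinking and focal adhesion genes did and 0 of 4 tropomyosins. Of all measured genes, 15.3% passed as higher.

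Srf was higher and its coactivators less so. Srf had 24.2 CPM in control and 55.3 CPM in JMJD3 shRNA, a 2.29-fold ratio, or log2 1.19 (0.998 to 1.39), from 272 and 1002 counts. The gene's 7 exons span positions 46683788 to 46693111 of chromosome 17 (mm9, minus strand). Mkl1 went from 47.4 to 60.1 CPM and Mkl2 from 87.5 to 118 CPM, log2 ratios of 0.34 (0.19 to 0.49) and 0.43 (0.32 to 0.54), below the fold asked for. Per exon length, as length-scaled transcript levels (TPM), Mkl1 was at 23.9 and Mkl2 at 22.7 TPM in control and they were at 32.7 and 32.9 TPM in JMJD3 shRNA. TPM carry no TMM factor, so their ratios between libraries differ from those of CPM. Of the ternary complex factors, which bind SRF in place of these coactivators, Elk3 passed as higher at log2 1.21 and Elk4, chosen after its values were seen, at 0.91. Elk1 was at 0.01 with an interval of -0.20 to 0.21. Myocd, the coactivator of muscle, had 0 and 1 counts.

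Srf is known to control its own gene, and CArG boxes were sought in promoters as the letters CC, then 6 letters that are each A or T, then GG. Promoters were 300-base windows of RefSeq genes on GRCm38.p6, from 250 bases before a listed start of the gene to 50 after it. Of the 44 genes, 39 matched the table by symbol or synonym, with 47 promoters, since a gene can have more than 1 listed start. Actb, Actg2, Tagln, S100a10 and Lgals1 did not match. A box was found for 9 of the 39, or 23.1%, against 1.81% of the 27025 genes in the table. The list was drawn up in part from genes known as SRF targets, so this share is not independent of how they were chosen. The 11 boxes, in 10 promoters, lay 31 to 227 bases before a listed start, and 3 of them had the same letters. The stretches around them are shown because they are the element through which SRF is known to act, 5′ to 3′ on the gene's strand, with the boxes in capitals.

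Srf, chr17:46556185-46556274, minus strand, boxes 82 and 62 bases before the start: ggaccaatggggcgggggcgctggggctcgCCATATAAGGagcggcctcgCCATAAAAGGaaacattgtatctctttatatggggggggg
Actg1, chr11:120348546-120348615, minus strand, box 90 bases before the start: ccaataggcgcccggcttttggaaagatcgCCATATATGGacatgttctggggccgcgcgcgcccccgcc
Cnn2, chr10:79988514-79988583, plus strand, box 56 bases before the start: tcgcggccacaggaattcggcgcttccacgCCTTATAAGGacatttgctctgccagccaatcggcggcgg
Vcl, chr14:20929148-20929210, plus strand, box 227 bases before the start: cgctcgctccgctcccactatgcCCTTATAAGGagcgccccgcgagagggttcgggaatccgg
Filip1l, chr16:57549150-57549219, plus strand, box 62 bases before the start: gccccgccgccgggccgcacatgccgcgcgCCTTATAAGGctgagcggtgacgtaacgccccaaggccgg
Fhl2, chr1:43163962-43164022, minus strand, box 31 bases before one of 2 listed starts: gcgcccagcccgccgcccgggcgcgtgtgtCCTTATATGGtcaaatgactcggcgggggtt
Fhl2, chr1:43196818-43196887, minus strand, box 96 bases before the other start: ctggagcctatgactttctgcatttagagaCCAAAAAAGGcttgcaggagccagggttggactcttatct
Vil1, chr1:74409281-74409350, plus strand, box 73 bases before the start: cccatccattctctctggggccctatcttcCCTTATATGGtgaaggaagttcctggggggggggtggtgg
Fhl1, chrX:56779551-56779620, plus strand, box 102 bases before the start: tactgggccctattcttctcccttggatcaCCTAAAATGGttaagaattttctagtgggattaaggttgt
Myl9, chr2:156775273-156775342, plus strand, box 161 bases before the start: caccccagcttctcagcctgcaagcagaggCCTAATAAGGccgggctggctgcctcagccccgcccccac

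Of the 9 genes with a box, 7 passed the rule of size as higher, and their median log2 ratio was 1.19. The exceptions were Myl9 at 0.43 and Filip1l at -0.24, although the box of Filip1l has the same letters as those of Cnn2 and Vcl. Counts cover a whole gene, and which listed start its transcripts used was not measured. Of the 30 matched genes without a box in the window, 13 passed as higher, with a median of 0.54. The AP-1 motif TGANTCA, sought on both strands, was in the window of 8 of 39 genes, 20.5% against 8.97% of all genes in the table, and the genes with it had a median log2 ratio of 0.67 against 0.66 without. The TEAD motif GGAATG, on either strand, was in 12 of 39, 30.8% against 16.6% of all, with medians of 0.53 with it and 0.79 without. A match is a run of letters and not a shown site of binding.

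Cytoplasmic actins passed the rule of size as higher and smooth muscle actins did not. Actb, beta-actin, was at 1189 CPM in control and 2839 CPM in JMJD3 shRNA, a 2.39-fold ratio (2.34 to 2.43). It lies on chromosome 5 from 143664795 to 143668403 in mm9, minus strand. Actg1, gamma-actin, went from 84.1 to 263 CPM, 3.13-fold (2.92 to 3.36). Acta2, the smooth muscle alpha-actin that marks myofibroblasts, had 44.7 and 59.4 CPM, a log2 ratio of 0.41 (0.26 to 0.57), short of 1.5-fold. Actg2, of enteric smooth muscle, had only 24 and 37 counts, and its interval of -0.84 to 0.74 included no difference. Per length, Actb made up 89.2% of all actin TPM in control and 89.3% in JMJD3 shRNA, while the share of Actg1 was 6.29% in control and 8.25% in JMJD3 shRNA and that of Acta2 3.56% and 1.98%. The share of Actg1 is less certain, since 39.4% of the 100-base windows of its coding transcripts also occur in transcripts of other genes. Actb moved from rank 58 to rank 11 among all genes by TPM.

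In myosin II the heavy chains passed as higher and the light chains did not. Myh9, the heavy chain of nonmuscle myosin IIA, was at 970 CPM in control and 2332 CPM in JMJD3 shRNA, log2 1.27 (1.23 to 1.30), and Myh10, of myosin IIB, at 72.4 and 141 CPM, log2 0.96 (0.85 to 1.08). The regulatory light chains Myl9 and Myl12a had log2 ratios of 0.43 and 0.25 and did not pass. Their relatives outside the set, Myl12b and the essential light chain Myl6, were at -0.18 and -0.15. The third nonmuscle heavy chain, Myh14, chosen after its values were seen, had 109 and 170 counts, log2 -0.05 (-0.40 to 0.31). Heavy chains are long transcripts and light chains short ones, and across all measured genes the ratio rose with exon length, by the correlation reported with the length trend. With that trend removed Myl9 passed too.

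**Figure D2:**
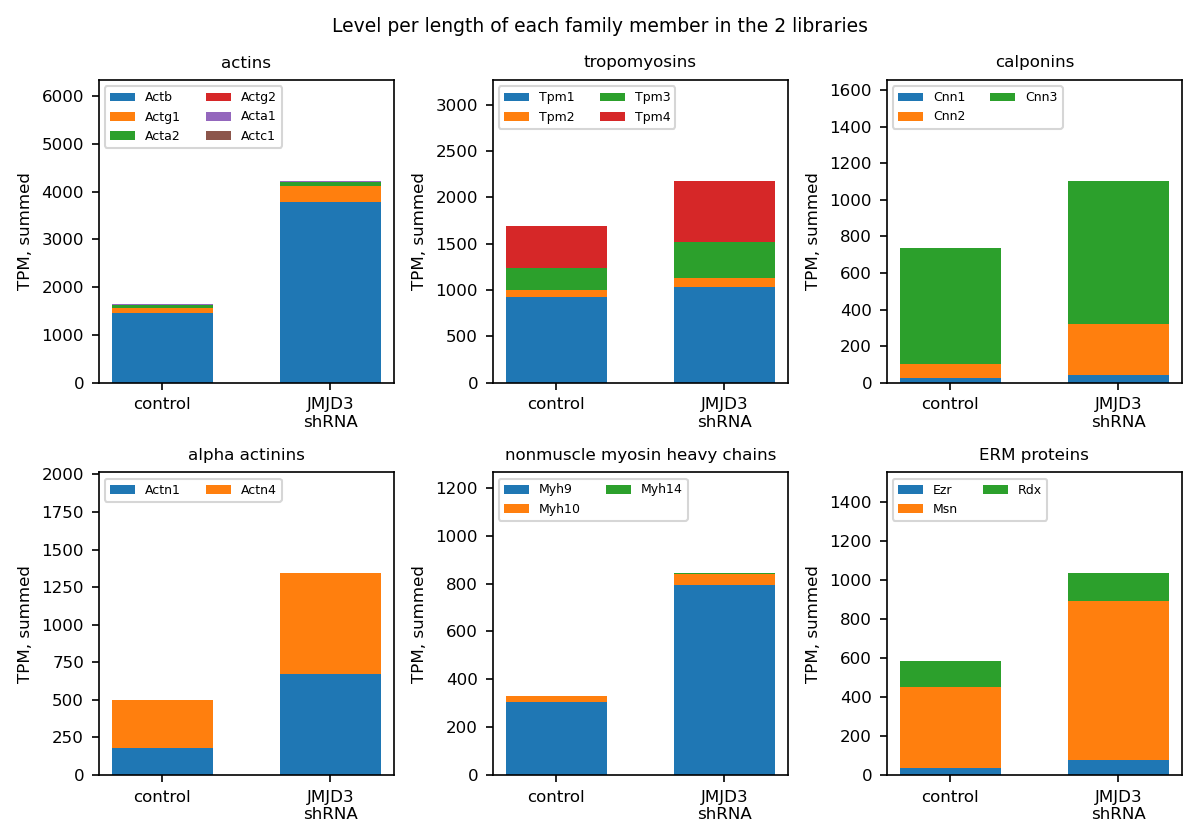
Level per exon length, in TPM, of each member of 6 gene families stacked in the control and the JMJD3 shRNA library, 1 library each. Summed actin rises 2.57-fold and summed alpha-actinin 2.68-fold, against 1.29-fold for tropomyosins, and Cnn2 widens within the calponins. TPM carry no TMM factor, so these folds are not on the scale of the CPM ratios.

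Calponins, transgelins and caldesmon bind along filaments and restrain their sliding, and only Cnn2 and Tagln of these 6 genes passed as higher. Cnn2, the calponin of nonmuscle cells, was at 56.9 CPM in control and 197 CPM in JMJD3 shRNA, 3.46-fold (3.18 to 3.77). Tagln, transgelin or SM22, was at 53.5 and 81.2 CPM, 1.52-fold (1.38 to 1.67), at the edge of the rule. Cald1, caldesmon, went from 2125 to 3108 CPM, 1.46-fold (1.44 to 1.48), just short of it. Cnn1, the smooth muscle calponin, was at log2 0.52, Tagln2 at 0.33 and Cnn3 at 0.20. Cnn3 stayed the main calponin per length, with 86.1% of calponin TPM in control and 70.9% in JMJD3 shRNA, while the share of Cnn2 was 10.1% and 25.1%.

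Tropomyosins, the coiled coils that lie in the groove of the filament and set which proteins bind it, had small ratios, and 0 of the 4 passed. Tpm3 came nearest at log2 0.57 (0.51 to 0.63), Tpm4 was at 0.45 and Tpm2, of muscle, at 0.39. Tpm1 had 1308 CPM in control and 1347 CPM in JMJD3 shRNA, log2 0.04 (0.01 to 0.07). Tpm1 held 55.0% of tropomyosin TPM in control and 47.4% in JMJD3 shRNA. Summed over each family, TPM was 1.29-fold higher for tropomyosins and 2.57-fold higher for actins. On the TMM-scaled CPM scale the sums were 1.16-fold higher for tropomyosins and 2.40-fold higher for the 4 actins of the set.

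Crosslinking and focal adhesion genes had 9 of 10 higher, against 15.3% of all measured genes. Their median log2 ratio was 1.28, with ratios from -0.24 to 3.15, and it was 1.12 with the exon-length trend removed. Fhl2, a LIM-domain cofactor that moves between focal adhesions and the nucleus, had the highest ratio of the 44 genes. It had 38 counts in control and 544 in JMJD3 shRNA, or 3.38 and 30.04 CPM, 8.89-fold (6.39 to 12.7), and lies on chromosome 1 from 43179919 to 43220806 in mm9. Among all measured genes its ratio lay at percentile 99.7. Its relative Fhl1 was at 6.14 and 14.1 CPM, 2.29-fold (1.75 to 3.04), on 69 and 255 counts. Per length, Fhl2 at 5.04 TPM and Fhl1 at 4.97 TPM were the lowest of the 44 genes in control after Actg2 at 3.78 TPM.

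The adhesion plaque proteins followed with ratios above 2-fold. Actn1, alpha-actinin 1, was at 290 CPM in control and 999 CPM in JMJD3 shRNA, 3.45-fold (3.32 to 3.58). Zyx, zyxin, which is recruited to strained filaments, was at 138 and 416 CPM, 3.03-fold (2.86 to 3.20). Tln1, talin, the link from integrins to actin, was at 221 and 575 CPM, 2.60-fold (2.49 to 2.72). The intervals of these 3 genes lay wholly above 2-fold. Vasp, which promotes filament elongation and binds zyxin, had 80.3 and 205 CPM, log2 1.35. Vcl, vinculin, had 150 and 305 CPM, log2 1.03.

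Actn4 and Flna were close to 2-fold. Actn4 had 524 CPM in control and 1020 CPM in JMJD3 shRNA, log2 0.96, and Flna, filamin A, 1497 and 2944 CPM, log2 0.98. Actn1 and Actn4 thus differed in their ratios, and per length Actn1 went from 36.0% to 49.9% of alpha-actinin TPM. The exception in this group was Filip1l, which is named for its likeness to a filamin-interacting protein. It had 452 and 382 CPM, a log2 ratio of -0.24 (-0.30 to -0.19), below 1 but within 1.5-fold.

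**Figure D3:**
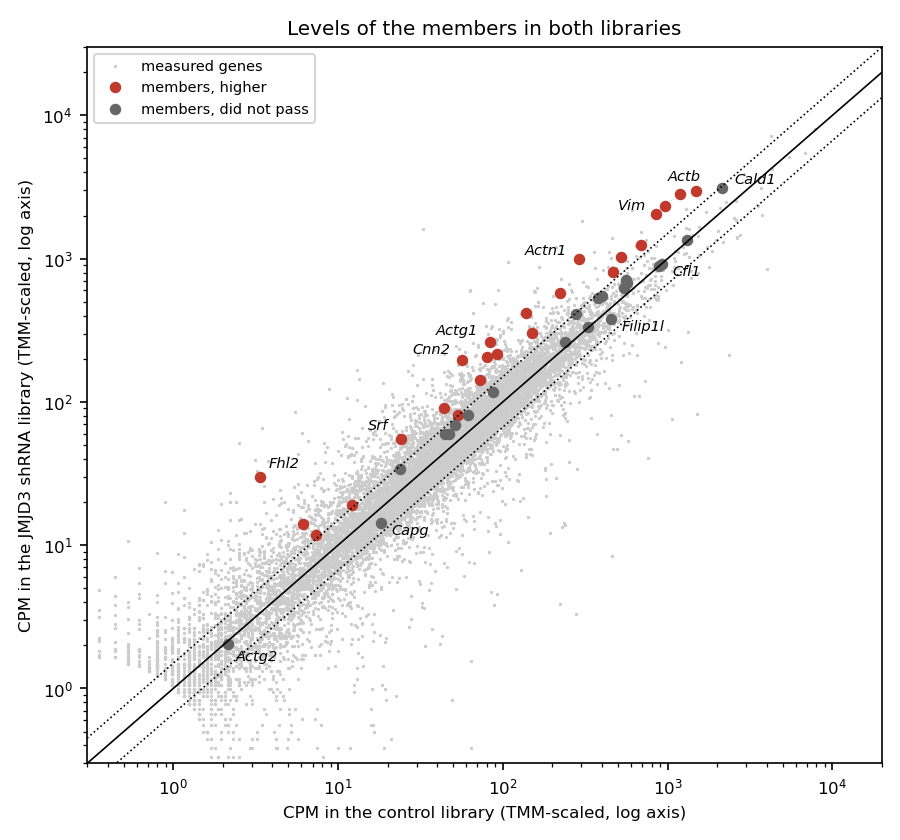
CPM in the JMJD3 shRNA library against CPM in the control library, both TMM-scaled on log axes, for 12607 measured genes in grey and the 44 genes in colour. The solid line marks equality and dotted lines 1.5-fold; genes higher in JMJD3 shRNA, in red, run from Fhl2 at 3.38 CPM in control to Flna at 1497 CPM.

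Genes of filament turnover showed no common direction. Cfl1, cofilin, which severs old filaments, had 921 CPM in control and 920 CPM in JMJD3 shRNA, log2 0.00 (-0.04 to 0.03). Pfn1, profilin, which loads monomers for assembly, was at 376 and 534 CPM, log2 0.51 (0.45 to 0.56), without passing. Vil1, villin, a bundler of microvilli, passed at 12.2 and 19.2 CPM, log2 0.66 (0.37 to 0.95). Capg, a capper of filament ends, was the lowest of the 44 genes at log2 -0.35 (-0.62 to -0.08), on 206 and 260 counts. Among the membrane linkers, ezrin and moesin both passed: Ezr was at 44.1 and 91.2 CPM, 2.07-fold (1.87 to 2.29), and Msn at 691 and 1247 CPM, 1.81-fold (1.76 to 1.85). Msn held 72.0% of the TPM of its family in control and 78.8% in JMJD3 shRNA. The share of the third member, Rdx, radixin, chosen after its values were seen, was 22.3% and 14.0%. The TPM of Rdx itself did not fall, at 130 in control and 145 in JMJD3 shRNA. Summed TPM of the family was 1.78-fold higher in JMJD3 shRNA.

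Annexins and S100 proteins, which bind membranes and calcium beneath the cell surface, did not share a ratio. Anxa2 and S100a10 form 1 complex, and both passed. Anxa2 was at 465 CPM in control and 804 CPM in JMJD3 shRNA, 1.73-fold (1.67 to 1.78), and S100a10 at 92.7 and 217 CPM, 2.34-fold (2.18 to 2.51). Anxa1 passed at log2 0.68 (0.31 to 1.06) on 83 and 214 counts. S100a6 at 330 and 331 CPM and Lgals1, galectin 1, at 885 and 886 CPM differed by less than their intervals, and S100a11 was at log2 0.13 (0.06 to 0.19). Lgals1 was among the most abundant genes per length, at rank 20 in control and rank 19 in JMJD3 shRNA.

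Vim, the intermediate filament protein of mesenchymal cells and of hepatocytes that lose their differentiated form in culture, was at 846 CPM in control and 2059 CPM in JMJD3 shRNA, 2.43-fold (2.38 to 2.49). It lies on chromosome 2 from 13495938 to 13504453 in mm9, plus strand. By TPM it moved from rank 97 to rank 17. Across the whole set, 4 genes had log2 ratios below 0 (Capg, Filip1l, Actg2 and Cfl1), of which only Capg and Filip1l had intervals that excluded no difference.

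Other lists of cytoskeletal genes were read beside the 44, and no difference between lists was tested. Among 29 other reported SRF and MRTF targets, 24 were measured, 18 passed as higher and 1 as lower, with a median log2 ratio of 1.70. The share higher was 75%, beside 15.3% of all measured genes. This list, like the set of 44, was chosen with earlier results of these data known, so its share is not independent of them. Its most abundant genes per length over both libraries were Ctgf and Cyr61, matricellular proteins that are targets of YAP and SRF alike, through the JMJD3 shRNA library. Ctgf had 31.9 TPM in control and 1694 TPM in JMJD3 shRNA, the highest ratio at log2 5.62 (5.47 to 5.77), and Cyr61 73.0 and 751 TPM, log2 3.25 (3.15 to 3.37). In control Csrp2 stood above both at 157 TPM. Csrp2, a LIM protein of smooth muscle, was the 1 gene lower, at 675 and 267 counts, log2 -2.03 (-2.24 to -1.82). The list mixes immediate early genes with cytoskeletal ones. Of the latter, chosen after their values were seen, Mical2, an actin oxidase that acts on SRF signalling, was at 2.43, Smtn, smoothelin, at 1.85, Flnc at 1.75, Pdlim5 at 1.64 and Csrp1 at 0.19.

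Among formins and other nucleation factors 6 of 14 measured genes passed as higher and 0 as lower, with a median of 0.46. The formin Daam1 was highest at 1.55 (1.46 to 1.65) and the formin Diap1 lowest at -0.31 (-0.39 to -0.22), while the most abundant, Cttn, cortactin, and Wasl, N-WASP, were at 0.32 and 0.27. In the Arp2/3 complex, which starts branches, 1 of 9 passed, or 11.11%, near the 15.3% of all measured genes. This was Actr3 at 0.87 (0.79 to 0.95), and Arpc3 was lowest at -0.49 with Arpc2 at 0.34. The intervals of Actr3 and Arpc3, subunits of 1 complex, did not overlap.

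Of 19 genes that bind monomers, sever filaments or cap them, 3 passed as higher and 0 as lower, and the median was 0.25. This share of 15.8% is about that of all measured genes, 15.3%. Wdr1, the helper of cofilin, was highest at 0.98 (0.92 to 1.05), the profilin Pfn2 lowest at -0.54 (-0.74 to -0.34), and the abundant Tmsb10 and Dstn were at -0.21 and 0.51.

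Relatives of the annexins and S100 proteins had 2 of 14 higher, 14.3% against 15.3% of all measured genes, and 0 lower, with a median of 0.14. Anxa3 was the highest at 0.93, Anxa5 was at 0.09 and Lgals4 was the lowest at -0.61 (-1.65 to 0.44) on 17 and 18 counts. Tubulins, the subunits of microtubules, went both ways, with 4 of 12 higher and 3 lower, and their median of 0.24 and mean of -0.25 differed in sign. Tubb6 was highest at 1.01 (0.87 to 1.15), Tuba8 lowest at -4.01 (-4.80 to -3.31) on 180 and 18 counts, and the abundant Tubb5 and Tuba1a were at 0.56 and 0.76.

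**Figure D4:**
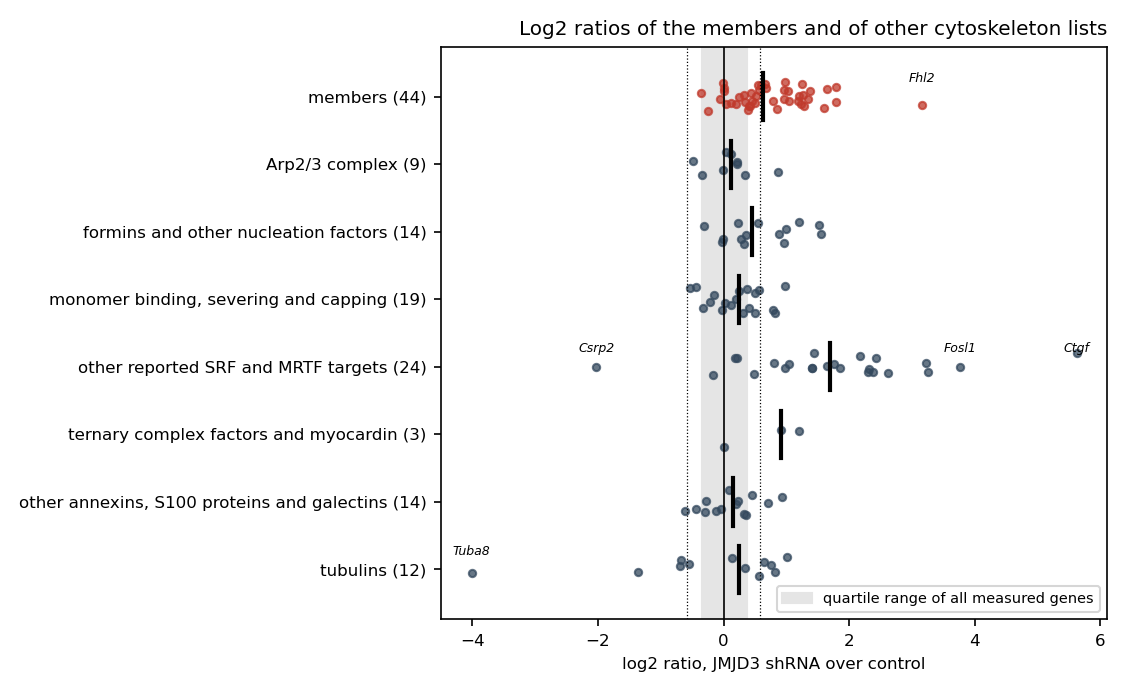
Log2 ratio, JMJD3 shRNA over control, of every measured gene in the set of 44 (red) and in 7 other cytoskeleton lists (dark), with the number of genes in brackets. Black ticks are medians, 0.63 for the 44 genes and 1.70 for other reported SRF and MRTF targets; grey marks the range between the quartiles of all measured genes and dotted lines 1.5-fold.

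Markers of other cells that a hepatocyte culture could hold were read in the same libraries. Their counts stand beside shares of 15.3% higher and 12.8% lower over all measured genes. Vascular smooth muscle markers had 2 of 4 measured genes higher and a summed level of 32.7 CPM in control and 96.1 CPM in JMJD3 shRNA, most of it Smtn at 22.7 and 82.0 CPM. Smtn is also an SRF target, and Myh11, the defining myosin, had 26 and 73 counts, while Cspg4 was at 0 in both and Rgs5 had 72 and 122 counts. Stellate cell and fibroblast markers had 1 of 10 higher and 3 lower, and their sum was 212 and 182 CPM. Col1a1 and Col1a2 were at log2 0.03 and -0.23, Thy1 was highest on 14 and 45 counts and Reln lowest on 141 and 17. The defining Lrat had 1 and 2 counts, and Des, desmin, 14 and 39. Markers of macrophages, 0 of 5 of which passed in either direction, summed to 25.9 and 27.3 CPM, from Folr2, the highest at log2 0.71, and Lyz2 at 0.29 to Cd68, the lowest at -0.31. Those of endothelial cells, 1 of 7 higher and 2 lower, summed to 52.7 and 48.3 CPM, with Oit3 at 1.13, Eng at 0.04, Cdh5 at -0.20 and Stab2 at -1.03. Those of mesothelial cells, 0 of which were measured, summed to 1.42 and 1.33 CPM. The macrophage gene Clec4f and the mesothelial Krt14 were at 0 in both. Cholangiocyte markers had 3 of 5 higher, Krt7, Krt19 and Sox9, with a sum of 7974 and 8283 CPM that was mostly Spp1, at 7795 and 8011 CPM. Krt7 was highest at log2 1.65 and Epcam lowest at 0.01. Among 9 hepatocyte markers 5 were lower and 1, Apob, higher, with a median log2 ratio of -0.62. Cps1, an enzyme of the urea cycle, was lowest at 2505 and 70 counts, log2 -5.85, and Asgr1 had 33 and 4 counts, log2 -3.73. Their sums of 7932 and 7657 CPM were mostly Trf, transferrin, at 4282 and 4254 CPM. The part of the hepatocyte, smooth muscle and cholangiocyte markers in the result was not tested.

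Exon length moved with the ratio over the whole table, with a Spearman correlation of 0.33 across 12607 genes of these 2 libraries, which share one gene annotation and are not independent replicates. The same correlation over the 44 genes was 0.33. With that trend removed, 28 of the 44 genes passed as higher and 0 as lower, with a median of 0.68. All 23 were among the 28, and the others were Cnn1, Myl9, Pfn1, S100a11 and Tpm3. The heavy chains Myh9 and Myh10 were then at 0.96 and 0.65 and the light chain Myl9 at 0.71, above Myh10 and passing as higher, with Myl12a at 0.41 not passing. The division between heavy and light chains thus did not hold with the trend removed. Mkl1 and Mkl2 were at 0.19 and 0.07. The short Cfl1, Lgals1 and S100a6, near 0 with the trend left in, were then at 0.26, 0.36 and 0.39, without passing.

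**Figure D5:**
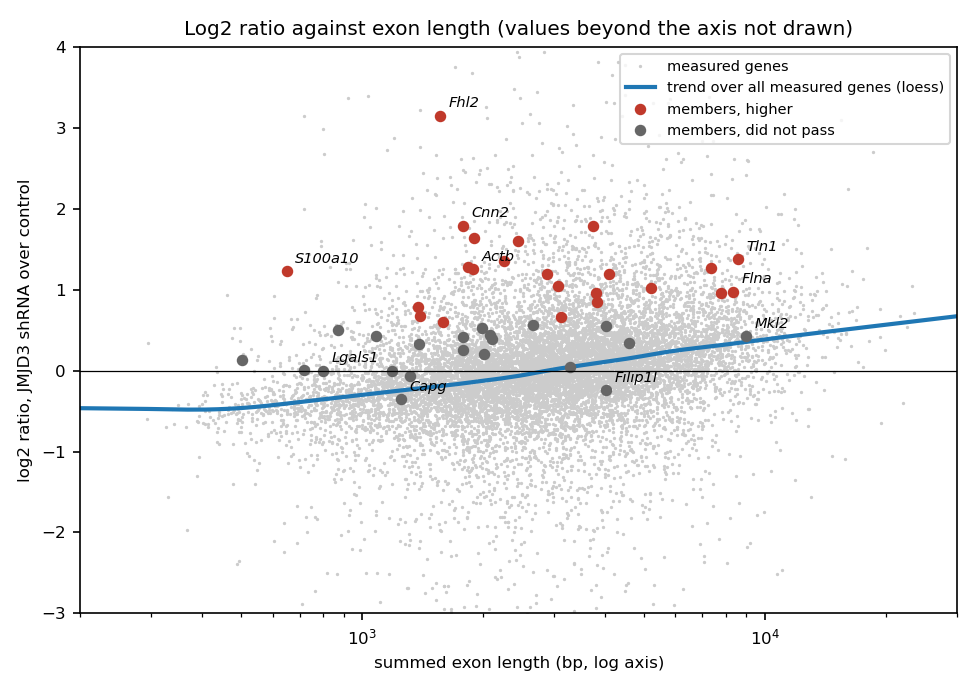
Log2 ratio, JMJD3 shRNA over control, against summed exon length on a log axis for all measured genes (grey), their loess trend (blue) and the 44 genes (red where higher by the rule of size, dark grey where not). The short S100a10 and the long Tln1 and Flna lie above the trend, Filip1l and Capg below it.

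Some counts are uncertain because reads may fit more than one gene. For each gene, the share of 100-base windows of its coding transcripts in GENCODE M21 that also occur in transcripts of another gene was computed. It was 39.4% for Actg1, 37.6% for Vcl, 34.0% for S100a11, 32.7% for Tagln, 27.6% for Tpm3 and 19.2% for Myl12a, and 0.90% for Actb. A shared window can come from transcripts that overlap at the same place as well as from a copy elsewhere, and the measure does not separate them. For Vcl the only other gene was Ap3m1. Exons of Tagln, Actn4, Vil1 and Mkl1 overlap another gene in the counted gene models, and those of Vcl do not. With the 10 genes over 5% left out, a choice made after seeing the data, 19 of 34 passed as higher and the median was 0.73.

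In the authors' deposited table, 24 of the 44 genes had an adjusted p-value under 0.05 with a positive fold change and 0 with a negative one, against 14.6% positive over its 12838 genes. The authors' deposited table gives Fhl2 a fold change of 3.15 on the log2 scale (adjusted p-value 1.39e-24) and Actb one of 1.26 (3.32e-08). Srf stands in the authors' deposited table at 1.19 with 2.59e-06, and Acta2 at 0.41 with 0.16. The submitters' processing notes name edgeR, but how 1 library was tested against 1 is not given in the sources used here. Run with an assumed biological variation of 0.4, as a coefficient, edgeR's exact test called 0 of the 44 genes at an adjusted p-value under 0.05, with 0.143% of measured genes called higher. At an unadjusted p under 0.05 it gave 3 of the 44, Fhl2, Cnn2 and Actn1, all higher, beside 1.99% of measured genes.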

How the data were processed

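RNA was measured in 2 libraries, 1 per group, named from the sample titles. The authors deposited unnormalized counts of reads on the exons of each gene, from featureCounts 1.4.6-p4 and mm9 gene models, without regard to strand and with the mates of a pair counted singly, per the file headers. STAR 2.5.3a, Trimmomatic 0.36 and edgeR, the last without a version, are among the tools in the submitters' processing notes. Reads were 100 bp, per the labels. The authors' deposited table holds log2 fold changes, average log2 CPM, and p-values with adjusted p-values. Its fold change had the sign of the knockdown over control ratio in 12824 of 12824 genes with counts in both libraries.

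Counts were scaled with TMM factors (edgeR 4.0.16, R 4.3.3). Ratios have no pseudocount. Exact conditional binomial 95% intervals came from scipy 1.17.1 and cover counting error only, and counting mates singly and PCR copies makes them too narrow. A count of 0 was set to 3 counts; none of the 44 genes needed it. TPM was computed from counts per exon length, without the TMM factors. Its ratios between libraries are thus not on the CPM scale. Cfl1, at 921 and 920 CPM, had 1813 TPM in control and 1951 TPM in JMJD3 shRNA. The length trend is a loess fit with a span of 0.5. Ratios and intervals were run on simulated counts that held counting error only, so the simulation could not check them against any other spread. All 44 genes were to be accounted for by name. In every other list reported with measured genes the 2 most abundant per length, the highest and the lowest were named, with Kdm6b as the target. Other genes, marker genes included, were chosen after their values were seen. The members, lists and rules were chosen with earlier results of these data known. Proteins were not analysed here. Of the other lists, 1 is not reported here.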

Additional observations from a re-analysis of the deposited data

How the results depend on the processing

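The genes of the set that were kept had a median log2 ratio between 0.58 and 0.73, and 0 passed as lower, under several settings. These were library totals, DESeq2 1.42.0 size factors, upper-quartile scaling, no low-count filter, a mean of at least 5 CPM and intervals from halved counts. Others were removal of the exon-length trend and leaving out overlapping genes. A further one, chosen after seeing the data, left out genes with over 5% of windows shared. All 44 genes were kept except for 43 at 5 CPM, 40 without overlapping genes and 34 without those over 5%. The share higher ran from 50% to 63.6% over these, against 13.2% to 15.6% of all measured genes. It was lowest at 22 of 44 under library totals and upper-quartile scaling, and at 20 of 40 without overlapping genes. It was highest at 28 of 44 with the exon-length trend removed, and was 19 of 34 without genes over 5%. With a fold of 2 the number higher was 15, and Tagln, Myh10, Actn4, Flna, Vil1, Msn, Anxa1 and Anxa2 no longer passed. With edgeR's exact test and an assumed coefficient of variation of 0.4 it was 0 at an adjusted p-value threshold of 0.05, and 3 at an unadjusted one. Tagln also fell short under library totals, at 0.57, and upper-quartile scaling, at 0.55. No gene that passed changed sign under any of these. Leaving out a replicate was not possible with 1 library per group. No paired analysis was possible because each group is 1 library. The depth of 11099562 counts in control leaves Actg2, on 24 counts, with an interval from -0.84 to 0.74.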

Other observations

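CArG boxes were also counted over the whole table, a comparison chosen after seeing the data. Of 144 measured genes with a box in a listed promoter, 31 passed as higher and 19 as lower, 21.5% and 13.2%, with a median log2 ratio of 0.09. Of 8930 without one, 1337 passed as higher, 14.97%, and 1111 as lower, 12.4%, with a median of 0.00. Without the 44 cytoskeletal genes, 24 of 135 genes with a box passed as higher, 17.8%, against 14.9% of 8902 without. As lower, 14.1% of those with a box passed and 12.5% of those without. The median of those with a box was 0.01. Genes matched to a promoter are a part of the 12607 measured genes, and the difference between these shares was not tested.

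Per length, the 2 alpha-actinins reached almost the same level in the JMJD3 shRNA library, Actn1 at 671 TPM and Actn4 at 672 TPM, from 180 and 320 TPM in control. Among tubulins, Tubb2a and Tubb6 moved apart, Tubb2a at log2 -1.36 (-1.45 to -1.27) and Tubb6 at 1.01. Among other reported SRF and MRTF targets, Fosl1 had 5 and 109 counts, Ankrd1 300 and 2953, and Thbs1 715 and 10719, log2 ratios of 3.76 (2.49 to 5.41), 2.61 (2.44 to 2.79) and 3.22 (3.11 to 3.33). These genes were chosen after their values were seen.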
